A study of Mus musculus with 6 samples.

Results

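The MHC class I genes and the genes that supply them with peptide were followed in 393P cells, a mouse lung adenocarcinoma line that some labels call 9393P. Members were taken by gene symbol: H2-D1, H2-K1 and the numbered genes of the H2-Q, H2-T and H2-M series, together with B2m, Tap1, Tap2, Tapbp, Tapbpl, Psmb8, Psmb9, Psmb10, Psme1, Psme2 and Erap1. They numbered 34 of the 19505 genes measured. Nlrc5, the transactivator of class I genes, also belonged to the set by name, but no probe set was matched to it and it was not analysed here. Each of the 34 had 1 probe set.

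Both groups were 393P cells grown in RPMI with serum and carrying a stable transfection. The AC9 group overexpressed AC9, a synonym of Adcy9 (adenylyl cyclase 9, which makes cAMP) in the gene table used for names, and the VECTOR group carried the empty vector. Each group had 3 samples, 1 Affymetrix Clariom S array per sample. The labels give puromycin or G418 as the selection drug without saying which group received which, and do not say whether a group was a clone or a pool, or whether its samples were separate cultures. The p-values thus cover no more than sample-to-sample spread, possibly a technical one, and a difference of drug or of selected cells cannot be told apart from that of AC9.

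Class I molecules are a heavy chain, encoded in the H2 complex, bound to the light chain beta-2-microglobulin and a short peptide, and they show cell contents to CD8 T cells and natural killer cells. The peptides come largely from the proteasome, pass into the endoplasmic reticulum through the TAP transporter and are fitted to the heavy chain by tapasin and related editors. Interferons raise most of these genes at once, including proteasome subunits that replace the constitutive ones. H2-K1 and H2-D1 encode the classical chains, while the Q, T and M genes encode nonclassical chains with narrower roles.

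Adcy9 was read first as a check of the labels. It measured 6.12, 6.09 and 6.15 in VECTOR and 6.78, 6.60 and 6.82 in AC9 (log2 intensity, as are all levels below). The groups did not overlap, and the rise was 1.53-fold (log2 change 0.61, SE 0.10, limma adjusted p 0.00264). The VECTOR arrays lay just above the level set as a bound below, and whether the probes cover the transfected construct was not tested.

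The 90th percentile of the negative control probe sets served as the bound for dim signals. It was 5.997 to 6.066 on the VECTOR arrays and 6.076 to 6.111 on the AC9 arrays. An AC9 array thus had to read slightly higher to lie above it. Correlations across genes, which are not independent replicates, were 0.994 to 0.996 within groups and 0.985 to 0.988 between them. Of 8 epithelial and lung adenocarcinoma markers, 6 lay above the bound on all 6 arrays, among them Epcam, Krt8, Krt18 and Cdh1, and Nkx2-1, the lung lineage factor, lay under it on all 6. Epcam (log2 change 0.44, limma adjusted p 0.0293) and Cldn4 (0.50, 0.0189) rose in AC9 and Krt19 fell (-0.47, 0.00873), while the mean level of the list was 9.38 to 9.41 in VECTOR and 9.36 to 9.50 in AC9. The part of these shifts in the results below was not tested. All 10 leukocyte markers measured (Ptprc, Cd3e and Itgam among them) and all 6 endothelial markers lay under it on all 6 arrays. The mean level of the leukocyte list was 4.77 to 4.90 in VECTOR and 4.89 to 4.98 in AC9, and that of the endothelial list 4.29 to 4.52 and 4.40 to 4.49. Of 6 fibroblast markers, 4 lay under the bound on all 6 arrays and Col1a1 above it on all 6. The list's mean level was 5.18 to 5.24 in VECTOR and 5.21 to 5.28 in AC9, and 0 of its members changed.

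In AC9 cells 6 of the 34 members fell and 0 rose. They were Tap2, the heavy chain gene H2-T22, Tapbp, Psme1, H2-T23 and H2-T10, and they fell by similar amounts, 1.45-fold to 1.56-fold (log2 changes of -0.64 to -0.53). Over all genes 9.29% were lower and 8.26% higher by the same rule, an adjusted p under 0.05 by limma. The median log2 change was -0.10 over the 34 members and 0.02 over all genes. With either filter on dim genes it was -0.19 over the members left and near 0 over the genes left. On arrays of bulk RNA, fewer cells with a transcript and less of it per cell cannot be told apart.

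By position, 23 members were lower (67.6%, against 47.3% of all genes) and 11 higher in mean level, with members under the bound counted. The groups did not overlap for 8 members lower in AC9, the 6 that fell with B2m and Psme2. They did not overlap either for 2 higher in AC9, Tapbpl and H2-M10.2, the latter under the bound on every array. Over all genes the groups did not overlap for 17.7% lower and 17.3% higher. In all, 17 members lay above the bound on every array, 13 under it on every array and 4 (Tap1, H2-Q1, H2-Q2 and H2-Q4) on either side of it. With the 95th percentile as the bound, 12 lay above it on every array. Of the 6 that fell, H2-T22 lay under this stricter bound on every AC9 array, and Tap2 on AC9 replicate 2. The 6 that fell were all among the 17 (35.3%), and 11 of the 17 did not pass the test. Of all genes above the bound on every array, 14.8% fell and 13.4% rose.

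**Figure D1:**
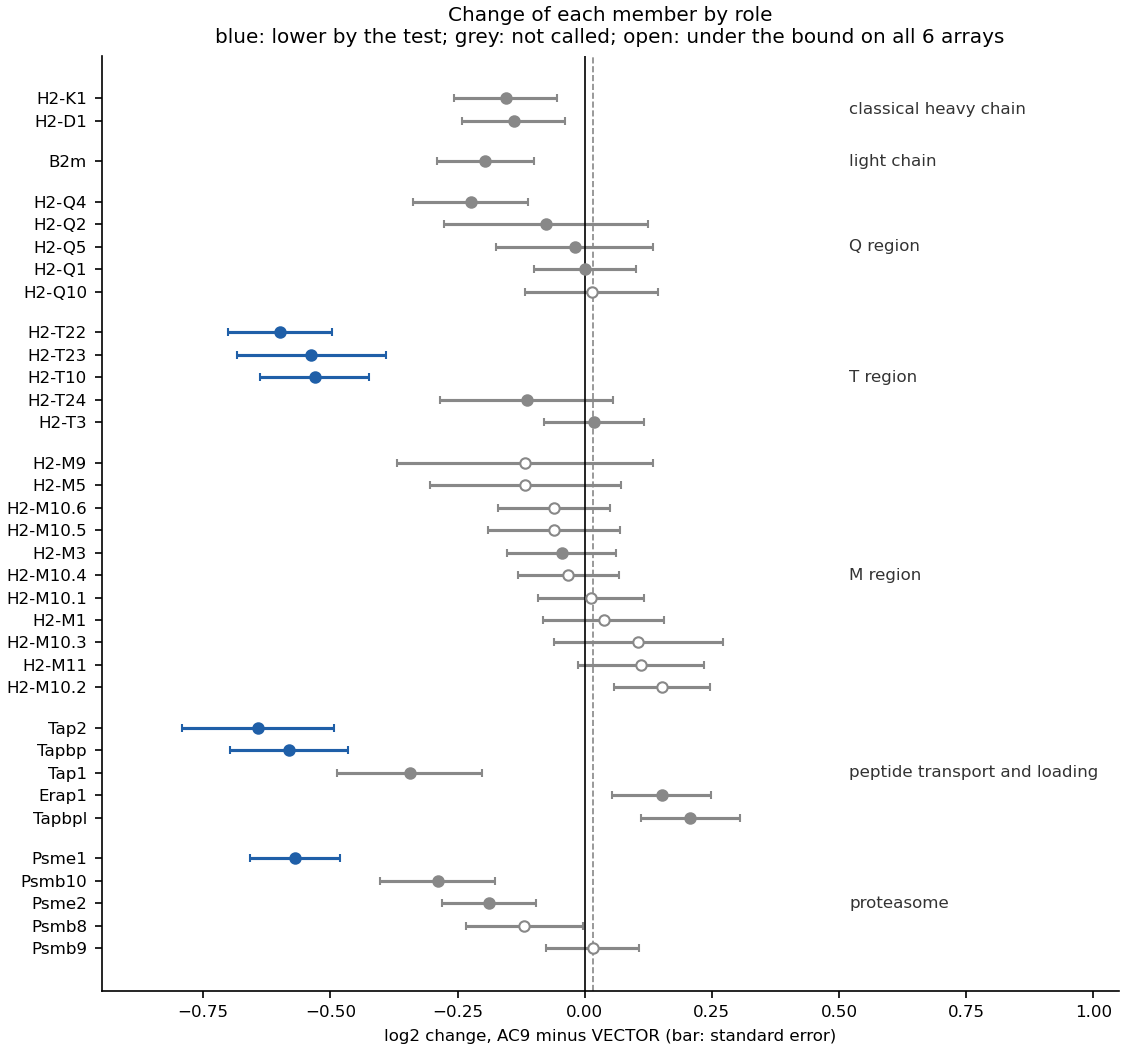
Log2 change (AC9 minus VECTOR, with the standard error of the limma fit) of each of the 34 members, grouped by role, with the median of all genes dashed. The 6 members that fell lie between -0.64 and -0.53, the other 28 between -0.34 and 0.21, and open points mark the 13 members under the negative-control bound on all 6 arrays.

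The classical heavy chains and the light chain did not pass the test. H2-K1 read 10.04, 10.30 and 10.15 in VECTOR cells and 9.93, 10.06 and 10.03 in AC9 cells. H2-D1 read 8.30, 8.48 and 8.37, then 8.11, 8.30 and 8.31. In both genes the ranges of the groups overlapped, with log2 changes of -0.16 (SE 0.10, limma adjusted p 0.350) and -0.14 (SE 0.10, adjusted p 0.407). B2m, whose product every class I heavy chain needs at the cell surface, read 12.41, 12.63 and 12.57 in VECTOR and 12.36, 12.34 and 12.33 in AC9. Its groups did not overlap, the gap between them was small, and its log2 change of -0.20 (SE 0.095, adjusted p 0.203) passed only with an intensity-trended robust prior (adjusted p 0.0102). Class I heavy chain genes are close relatives, so probe sets of one can take up signal of another, and how far that happened was not tested.

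The promoters of these 3 genes carry the elements through which class I genes are known to be driven, and they are printed because TGACG and ATTGG lie at the same spacing in all 3. Each stretch comes from RefSeq promoters of the build GRCm38.p6 and runs 5′ to 3′ on the gene's strand. Capitals mark, in this order, the kappaB element GGGATTCCC (in B2m the interferon response core GAAANNGAA), the CRE core TGACG, which is also the core of the X2 box, and ATTGG, the reverse of CCAAT and core of the Y box. The stretches lie at chr17:34000349-34000467 (minus strand) for H2-K1, chr17:35262914-35263032 (plus strand) for H2-D1 and chr2:122147538-122147648 (plus strand) for B2m.
H2-K1: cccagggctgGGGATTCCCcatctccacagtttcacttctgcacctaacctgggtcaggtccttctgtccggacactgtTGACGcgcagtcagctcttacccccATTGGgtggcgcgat
H2-D1: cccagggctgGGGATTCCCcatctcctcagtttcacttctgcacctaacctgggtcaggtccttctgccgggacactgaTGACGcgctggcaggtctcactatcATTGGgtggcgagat
B2m: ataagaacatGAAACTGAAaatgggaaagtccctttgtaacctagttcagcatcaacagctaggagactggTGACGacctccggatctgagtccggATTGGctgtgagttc

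The H2-K1 and H2-D1 stretches were identical at 107 of 119 bases (89.9%). In both, TGACG began 69 bases after the start of the kappaB element and ATTGG began 25 bases after the start of TGACG, and the last spacing was 25 in B2m as well. Among the first promoter of each of 27025 genes, 26 (0.0962%) held TGACG and ATTGG at that spacing on either strand, 4 of them members (H2-K1, H2-D1, B2m and H2-M3). This arrangement was looked for after the members' sequences had been seen. None of the 4 passed the test of expression, with H2-M3 at a log2 change of -0.05 (SE 0.11, adjusted p 0.825). H2-M3, which presents formylated bacterial and mitochondrial peptides, was the only H2-M gene above the bound on all 6 arrays.

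**Figure D2:**
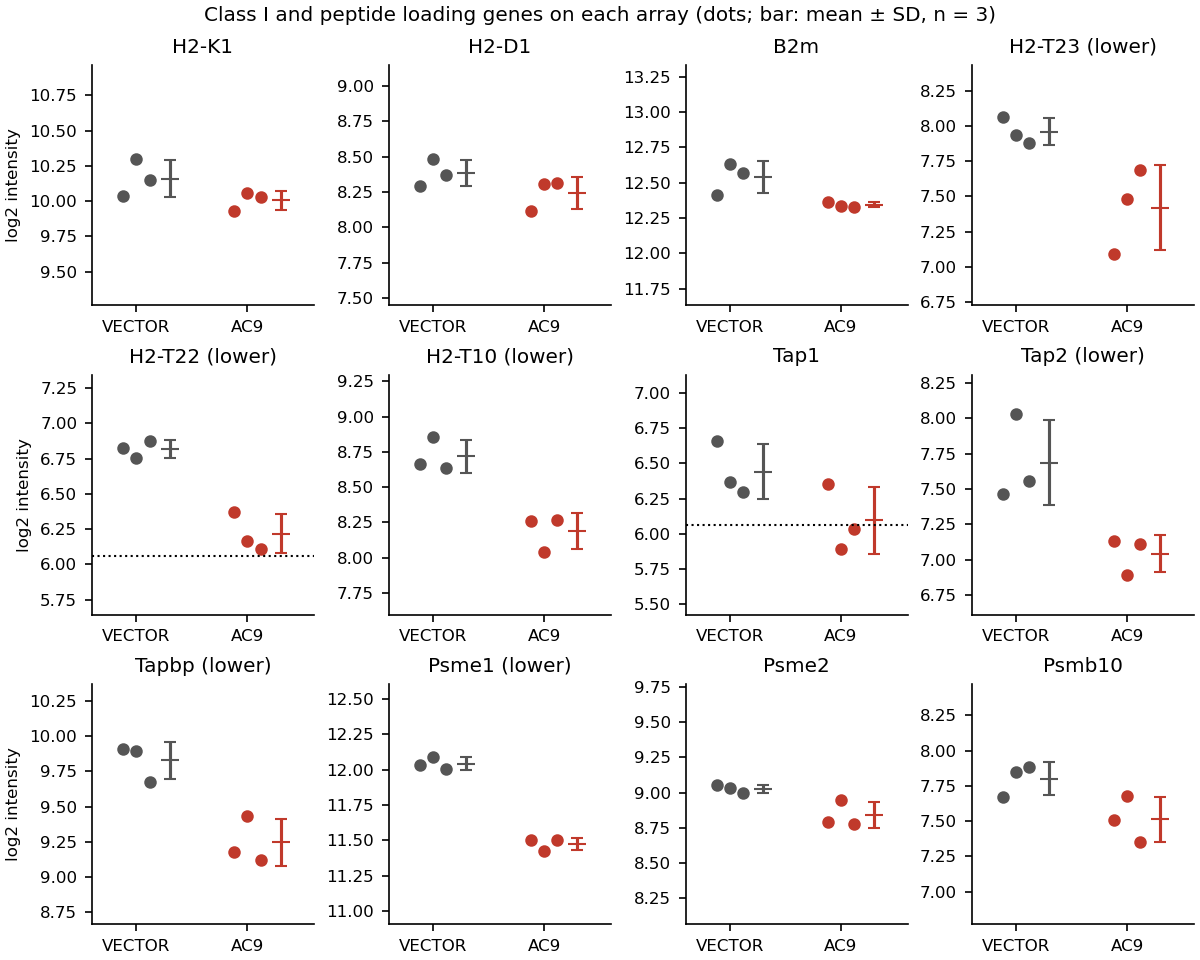
Log2 intensity of 12 members on each array (dots), with the mean and SD of the 3 arrays of each group, and the dotted line is the mean bound from the negative controls. The groups are well apart for Psme1, H2-T10, H2-T22, Tap2 and Tapbp, nearer each other for H2-T23, and overlap for H2-K1 and H2-D1.

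Among the 5 T genes, all above the bound on all 6 arrays, 3 fell, against 14.8% of all genes so placed. Their probe sets may share signal, which was not tested. H2-T22 read 6.82, 6.75 and 6.88 in VECTOR and 6.37, 6.17 and 6.11 in AC9, without overlap, a fall of 1.52-fold (log2 change -0.60, SE 0.10, limma adjusted p 0.00391). The AC9 arrays lay just above the bound. H2-T10 read 8.67, 8.85 and 8.64 in VECTOR and 8.26, 8.04 and 8.26 in AC9, again without overlap, with a log2 change of -0.53 (SE 0.11, adjusted p 0.00868). The products of H2-T22 and its close relative H2-T10 are known as ligands of some gamma-delta T cells, and the gene table lists H2-T10 as a transcribed pseudogene.

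H2-T23 encodes Qa-1, the ligand of the inhibitory receptor CD94/NKG2A of natural killer cells. It read 8.07, 7.93 and 7.88 in VECTOR and 7.09, 7.48 and 7.69 in AC9. The groups did not overlap, but the AC9 arrays spread far more than the VECTOR arrays (SD 0.30 against 0.10, n = 3 each). The log2 change was -0.54 (SE 0.15, limma adjusted p 0.0330). The call ended when VECTOR replicate 1 (adjusted p 0.104), 2 (0.0740) or 3 (0.0572) was dropped and without AC9 replicate 1 (0.0883) or 2 (0.0632), and stood without AC9 replicate 3 (0.0180).

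H2-T24 and H2-T3, the gene of the thymus leukaemia antigen of the gut lining, lay above the bound and did not pass the test. H2-T24 read 7.09, 6.49 and 7.03 in VECTOR and 7.002, 6.60 and 6.67 in AC9 (log2 change -0.11, SE 0.17, adjusted p 0.713). H2-T3 read 6.33, 6.13 and 6.10, then 6.20, 6.25 and 6.17 (0.02, SE 0.10, adjusted p 0.926). The groups overlapped in both.

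The 3 T genes that fell lie near each other. In the RefSeq gene table of GRCm38.p6, used only for order here, H2-T23 and H2-T22 are neighbours on chromosome 17, with 7 genes listed between H2-T22 and H2-T10. Of the 19 genes listed from H2-T24 to H2-T3, 12 were measured and 3 fell, the same 3. Of all genes 9.29% fell, and 14.8% of those above the bound on all 6 arrays. H2-T-ps, another class I gene, listed between H2-T22 and H2-T10 and above the bound, was at -0.28 (limma adjusted p 0.282). H2-T-ps is named here after its value was seen.

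The promoters of H2-T22, at chr17:36042693-36042992 on the minus strand, and H2-T23, at chr17:36032652-36032951 on the minus strand, are printed from RefSeq (GRCm38.p6) because these neighbours fell together. Capitals mark CCAAT or its reverse ATTGG, the interferon response core (here read on the other strand) and, in H2-T22, TGACG. Each window holds 300 bases around the start.
H2-T22: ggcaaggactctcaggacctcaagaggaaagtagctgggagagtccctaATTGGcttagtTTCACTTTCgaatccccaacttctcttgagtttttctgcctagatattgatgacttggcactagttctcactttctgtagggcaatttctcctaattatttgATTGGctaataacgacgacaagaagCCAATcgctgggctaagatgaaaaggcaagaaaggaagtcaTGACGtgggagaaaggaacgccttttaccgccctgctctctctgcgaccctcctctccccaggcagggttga
H2-T23: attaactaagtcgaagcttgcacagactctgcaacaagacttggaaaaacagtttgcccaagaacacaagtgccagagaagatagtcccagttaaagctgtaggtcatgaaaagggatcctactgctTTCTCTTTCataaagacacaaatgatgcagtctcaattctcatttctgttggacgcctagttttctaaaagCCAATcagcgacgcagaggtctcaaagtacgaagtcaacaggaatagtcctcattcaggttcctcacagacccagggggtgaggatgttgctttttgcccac

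The interferon response core began 190 bases before the start in H2-T22 and 123 bases before it in H2-T23. It occurred in 5 of the 28 member promoters in the table (17.9%), those of B2m, Erap1, H2-T22, H2-T23 and Psme1, and in 8.57% of all 27025. The kappaB element occurred in 2 member promoters, of H2-K1 and H2-D1, and in 0.370% of all. TGACG occurred in 13 (46.4%, against 21.0% of all) and CCAAT in 20 (71.4%, against 37.9%). The GAS element TTCNNNGAA occurred in 3, those of H2-M11, H2-M3 and Psmb8 (10.7%, against 8.47%). Both strands were searched, and since the interferon response core and the GAS element leave bases free they can overlap other elements. Only exact letters were counted, so a promoter left out of a count lacks no more than those letters. Looser forms of an element were not searched, in H2-K1 and H2-D1 or elsewhere. Related H2 genes share sequence, so these promoters are not independent.

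**Figure D3:**
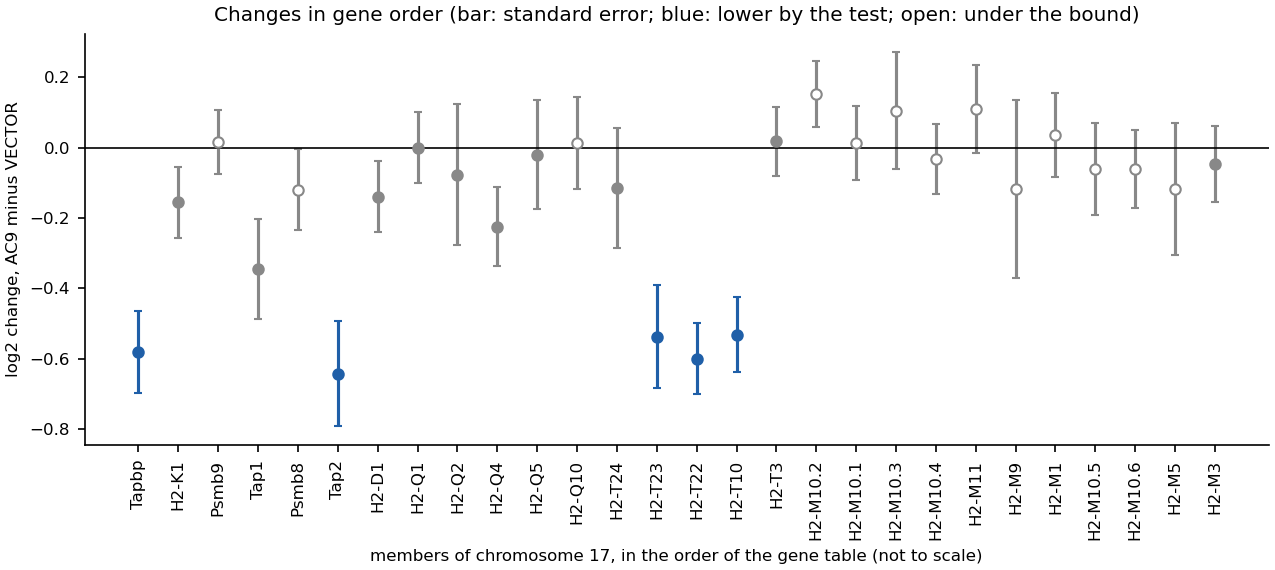
Log2 change (AC9 minus VECTOR, bars standard errors) of the 28 members on chromosome 17, placed in the order of the gene table and not to scale. Of the 6 members that fell 5 are here, with Tapbp and Tap2 toward one end. H2-T23, H2-T22 and H2-T10 are side by side only among members, since the 7 genes listed between H2-T22 and H2-T10 are not drawn. H2-K1, H2-D1 and the M genes lie nearer 0.

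None of the 5 Q genes passed the test. H2-Q5, listed as a transcribed pseudogene, was above the bound on all arrays, at 6.98, 6.95 and 6.47 in VECTOR and 6.61, 6.99 and 6.74 in AC9 (log2 change -0.02, SE 0.15). H2-Q4 read 6.06, 5.95 and 6.25 in VECTOR and 5.79, 6.01 and 5.79 in AC9, with 2 VECTOR arrays above the bound and 0 AC9 arrays. Its groups overlapped and it did not pass (adjusted p 0.221). H2-Q1 was at 0.00 (SE 0.10) beside the bound. H2-Q2 reached the bound on 1 VECTOR array, with no size of change given, and H2-Q10, known as a secreted liver product, lay under it on every array.

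Of the 11 M genes, 10 lay under the bound on every array, with values of 3.16 to 5.12: H2-M1, H2-M5, H2-M9, H2-M11 and H2-M10.1 to H2-M10.6. The M10 genes are known from sensory neurons of the vomeronasal organ. No size of change is given for these 10, none of which passed the test. H2-M3 read 7.97, 7.70 and 7.90 in VECTOR and 7.93, 7.72 and 7.79 in AC9, overlapping ranges.

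Peptide transport and loading held 2 of the 6 members that fell. Tap2, a chain of the TAP peptide pump, read 7.47, 8.03 and 7.56 in VECTOR and 7.13, 6.89 and 7.11 in AC9. The groups did not overlap, and VECTOR replicate 2 stood above its fellows. Tap2 fell 1.56-fold, by the largest amount of any member that passed (log2 change -0.64, SE 0.15, limma adjusted p 0.0170). Its call was lost without AC9 replicate 2 (adjusted p 0.0596), and the change was -0.47 without VECTOR replicate 2 (adjusted p 0.0323).

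Tap1, the other chain of the pump, read 6.66, 6.37 and 6.29 in VECTOR and 6.35, 5.89 and 6.04 in AC9. Its groups overlapped, and 2 of the 3 AC9 arrays lay under the bound. Its log2 change of -0.34 (SE 0.14, limma adjusted p 0.137) did not pass. Tap1 and Psmb10 were the members nearest to the threshold without passing it.

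Tapbp encodes tapasin, which bridges the pump and the empty class I molecule. It read 9.91, 9.89 and 9.68 in VECTOR and 9.18, 9.43 and 9.12 in AC9. Every AC9 array lay below every VECTOR array, a fall of 1.5-fold (log2 change -0.58, SE 0.12, limma adjusted p 0.00823). Its relative Tapbpl, also a peptide editor, read 7.45, 7.42 and 7.64 in VECTOR and 7.74, 7.67 and 7.72 in AC9, without overlap. That log2 change of 0.21 (SE 0.10, adjusted p 0.186), the most positive of the members, did not pass. Erap1, which trims peptides in the endoplasmic reticulum, read 7.52, 7.55 and 7.64, then 7.79, 7.59 and 7.77, with overlap (0.15, SE 0.10, adjusted p 0.345).

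In the proteasome set, the activator subunit Psme1 stood out by its small spread. Psme1 read 12.04, 12.09 and 12.002 in VECTOR and 11.50, 11.42 and 11.50 in AC9. The groups were far apart against that spread (SD 0.04 and 0.05, n = 3 each), a fall of 1.48-fold (log2 change -0.57, SE 0.09, limma adjusted p 0.00236). Psme2, its partner in the ring-shaped activator PA28, read 9.06, 9.03 and 8.997 in VECTOR and 8.79, 8.95 and 8.78 in AC9. These groups did not overlap either, but the log2 change of -0.19 (SE 0.09, adjusted p 0.207) did not pass.

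Psmb8, Psmb9 and Psmb10 are the catalytic subunits of the immunoproteasome. Psmb8 and Psmb9 lay under the bound on every array, at 5.35, 5.28 and 5.16 in VECTOR and 5.30, 5.18 and 4.95 in AC9 for Psmb8, so their changes are left without a size. Psmb9 read 5.32, 5.17 and 5.17, then 5.25, 5.25 and 5.21. Psmb10 lay above it, at 7.67, 7.85 and 7.89 in VECTOR and 7.51, 7.68 and 7.35 in AC9. Only AC9 replicate 2 reached into the VECTOR range, and the log2 change of -0.29 (SE 0.11, limma adjusted p 0.116) did not pass. With genes left out that were above the bound on fewer than 3 arrays, Psmb10 passed (adjusted p 0.0465).

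The promoters of Psme1, at chr14:55578244-55578543 on the plus strand, and Tapbp, at chr17:33919228-33919527 on the plus strand, are printed from RefSeq (GRCm38.p6) as those of the other members that fell. Capitals mark the reversed interferon response core in Psme1, which begins 11 bases into the gene, and ATTGG in Tapbp. None of the 5 elements searched other than these was found in either window, which says only that those letters are not there. The sequences of the Tap2 and H2-T10 promoters are not used here.
Psme1: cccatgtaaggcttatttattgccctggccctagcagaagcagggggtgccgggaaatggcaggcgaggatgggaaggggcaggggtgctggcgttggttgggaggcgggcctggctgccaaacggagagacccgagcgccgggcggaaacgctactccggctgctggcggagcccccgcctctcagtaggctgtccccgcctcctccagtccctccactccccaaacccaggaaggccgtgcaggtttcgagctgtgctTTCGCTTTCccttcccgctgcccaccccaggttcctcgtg
Tapbp: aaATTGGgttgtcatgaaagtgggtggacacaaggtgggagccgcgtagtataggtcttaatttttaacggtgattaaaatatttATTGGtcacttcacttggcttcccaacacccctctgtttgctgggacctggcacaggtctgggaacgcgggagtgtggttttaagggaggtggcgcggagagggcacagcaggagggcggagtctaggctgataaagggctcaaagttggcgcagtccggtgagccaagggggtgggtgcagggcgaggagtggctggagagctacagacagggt

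Psmb9, Tap1, Psmb8 and Tap2 follow each other on chromosome 17. Tap2 alone passed, and whether its change differs from that of Tap1 was not tested. On chromosome 14 the gene table lists Emc9 between Psme1 and Psme2. Emc9, an endoplasmic reticulum membrane complex gene named after its value was seen, had a log2 change of -0.57 (limma adjusted p 0.00514), close to that of Psme1. Psme1 passed and Psme2 did not, and whether their changes differ was not tested.

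Inducible subunits were set against their counterparts within each array. The log2 difference Psme1 minus Psme3 changed by -0.90 from VECTOR to AC9, with every AC9 array below every VECTOR array. Psme3, the subunit of the nuclear activator PA28 gamma, rose by 0.33 (limma adjusted p 0.0357), a call lost whichever array was left out (adjusted p up to 0.118), with quantile normalization repeated and with the replicate block. Psme2 minus Psme3 changed by -0.52 and Psmb10 minus Psmb7, its constitutive counterpart, by -0.49, both without overlap. Psmb9 minus Psmb6 is left without a size, since Psmb9 lay under the bound. In all 4 the two-sided exact permutation p was 0.10, the smallest that 3 against 3 arrays allow, and 0.10 after Benjamini-Hochberg adjustment over the 4, so no difference could pass 0.05.

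**Figure D4:**
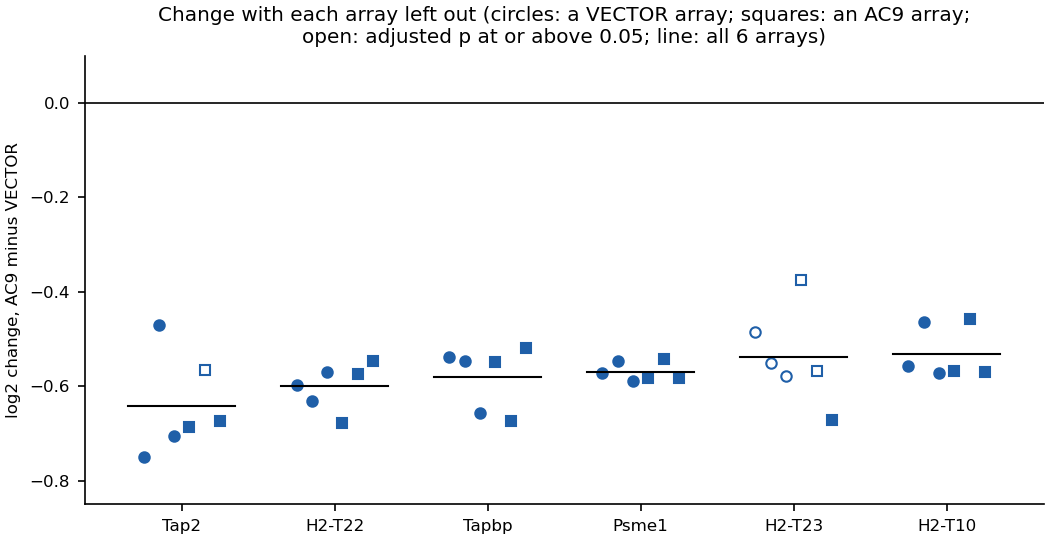
Log2 change (AC9 minus VECTOR) of the 6 members that fell, with each of the 6 arrays left out in turn (circles for a VECTOR array, squares for an AC9 array, open where the call was lost) and with all arrays (line). Psme1, Tapbp, H2-T22 and H2-T10 passed in all 6 fits, Tap2 in 5 and H2-T23 in 1, and all values lie between -0.75 and -0.37.

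Other genes of class I assembly and peptide supply rose rather than fell where they passed. Of 22 measured, 5 rose (22.7%) and 0 fell, with a median log2 change of 0.05. All 22 lay above the bound on all 6 arrays, where 13.4% of genes rose and 14.8% fell. Psme4, the proteasome activator PA200, rose by 0.77 (limma adjusted p 0.00983), the cytosolic peptidase Tpp2 by 0.56 (0.00514) and the chaperone Hspa5 by 0.56 (0.00430). Canx, the chaperone calnexin that holds new heavy chains, rose by 0.34 (0.0487). The call of Canx held in 1 of the 6 fits with an array left out (adjusted p up to 0.146) and was lost with quantile normalization repeated, with array weights, with the replicate block and with arrays centred on the negative controls. The fifth was Psme3. Calr, Pdia3 and the translocon gene Sec61a1 were at -0.01, 0.13 and -0.04 and did not pass.

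Of 28 regulators of class I transcription measured, 5 fell (17.9%) and 1 rose (3.57%), with a median of -0.03. All but Ciita lay above the bound on all 6 arrays, where 14.8% of genes fell and 13.4% rose (28.2% in either direction, against 21.4% of the list). Stat3, a signal transducer of the interleukin 6 family, read 8.83, 8.76 and 8.97 in VECTOR and 7.95, 7.97 and 7.75 in AC9, a fall of 1.95-fold (log2 change -0.97, SE 0.10, limma adjusted p 0.000361). Irf9, a transcription factor of the interferon response, read 7.84, 7.41 and 7.45, then 6.88, 6.78 and 6.996, a fall of 1.6-fold (-0.68, SE 0.13, adjusted p 0.00666). In both, every AC9 array lay below every VECTOR array.

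Rfxank, a subunit of the factor at the X box, changed by -0.50 (limma adjusted p 0.0180), a call that held in 2 of 6 fits with an array left out (adjusted p up to 0.0675). Ifngr2, a chain of the interferon gamma receptor, changed by -0.47 (adjusted p 0.0119) and the kinase Tyk2 by -0.41 (0.0180), the last holding in 1 of the 6 fits (up to 0.0613). Ifngr2 and Tyk2 lie outside the naming rule and were chosen after their values were seen. Nfyb, a subunit of the factor that binds CCAAT, rose by 0.60 (0.00546). Creb1 and Atf1, which bind the CRE, were at 0.28 (adjusted p 0.127) and 0.27 (0.0686), and Irf1 was at -0.24 (0.134). Ciita lay under the bound on every array.

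Among class I-like genes outside the member set were larger changes than among the members. Of 15 measured, 2 fell (13.3%, against 9.29% of all genes) and 1 rose (6.67%, against 8.26%), and 9 lay under the bound on every array. Fcgrt, the heavy chain of the neonatal Fc receptor, pairs with beta-2-microglobulin and protects IgG and albumin from breakdown. It read 7.51, 7.29 and 7.48 in VECTOR and 5.51, 5.79 and 5.07 in AC9, all of the latter under the bound. It was at least 2.51-fold lower (limma adjusted p 9.2e-05), a limit computed against each array's bound.

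Mr1, which also pairs with beta-2-microglobulin and presents vitamin B metabolites, read 8.93, 9.07 and 9.10 in VECTOR and 8.17, 8.04 and 8.29 in AC9. It fell 1.82-fold without overlap (log2 change -0.87, SE 0.10, limma adjusted p 0.000587). Ulbp1, a stress ligand of the receptor NKG2D, rose by 0.53 (adjusted p 0.0158), a call that held in 3 of 6 fits with an array left out (up to 0.0660). Cd1d1 was at 0.05 and did not pass.

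Of 12 MHC class II genes measured, 3 fell (25.0%, against 9.29% of all genes) and 0 rose, and 8 lay under the bound on every array. H2-DMb1, a chain of the class II peptide editor, read 8.45, 8.59 and 8.56 in VECTOR and 6.74, 6.92 and 6.98 in AC9, a fall of 3.14-fold (log2 change -1.65, SE 0.10, limma adjusted p 1.9e-05). H2-DMb2, a near copy of it, passed as well (adjusted p 0.00251) while under the bound on all arrays, so no size is given. The probe sets of these 2 genes may share signal, which was not tested. Ifi30, a lysosomal reductase, changed by -0.30 (adjusted p 0.0408) and passed in 0 of the 6 fits with an array left out (up to 0.115).

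**Figure D5:**
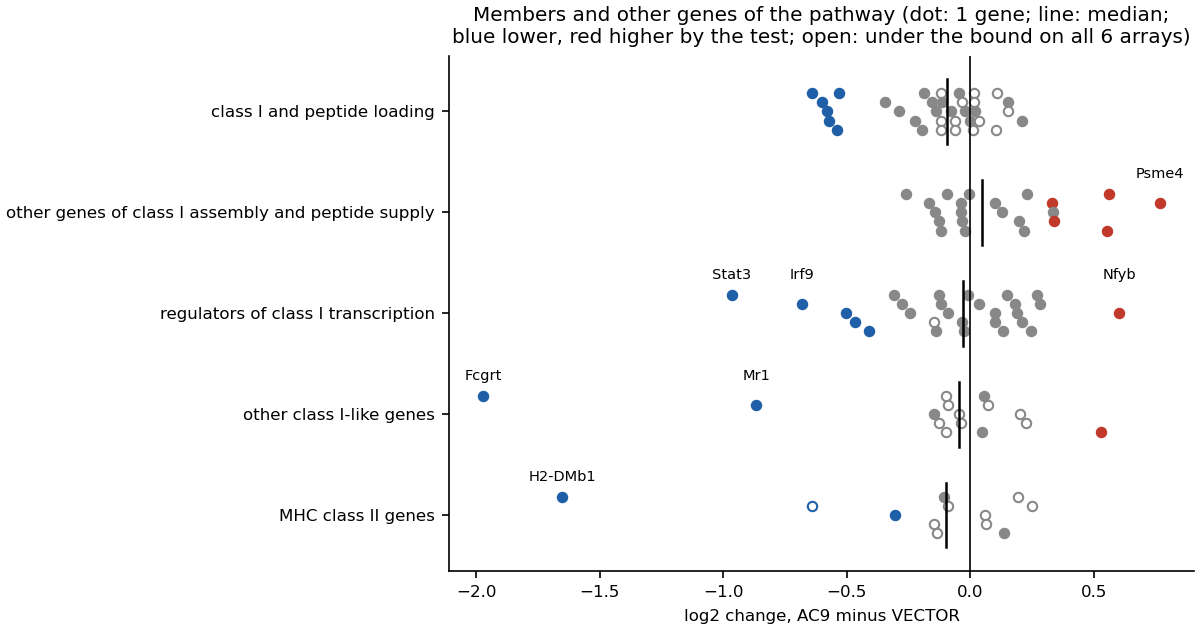
Log2 change (AC9 minus VECTOR) of the 34 members and of the measured genes of 4 other lists of the pathway, 1 dot per gene with the median as a line. Colours mark genes that passed the test and open dots genes under the bound on all 6 arrays. H2-DMb1 at -1.65, Stat3 at -0.97, Mr1 at -0.87 and Irf9 at -0.68 lie below every member, as does Fcgrt, whose point has no exact size because its AC9 arrays lie under the bound.

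The background probe sets, made to match no transcript, read lower in AC9 too. Grouped by GC content into 23 classes, every AC9 array read below every VECTOR array in 19, with a median class difference of -0.06 and the largest, class 25, at -0.50. The 6 members that fell, picked by passing the test, changed by -0.64 to -0.53, and by -0.75 to -0.37 with an array left out. The negative control probe sets did not read lower, with array medians of 3.98 to 4.03 in VECTOR and 3.996 to 4.03 in AC9. The GC content of the members' probes was not used here, and the part of the background in their changes was not tested.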

How the data were processed

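Expression was measured in 3 AC9 and 3 VECTOR samples of 393P cells, 1 array each. The deposited log2 intensities per probe set were made by the authors with RMA, per the submitters' processing notes, which adjusts for background, equalises the arrays' distributions and combines a probe set's probes. The RMA version and the genome build used are not named in the labels. RMA can shrink differences of dim genes. Of 28846 probe sets, 22206 were not controls, and GEO's platform annotation gave 19572 a gene symbol, for 19505 genes (the probe set with the highest mean per gene). All were matched by gene number to RefSeq's GRCm38.p6 table. Promoters were matched for 28 members.

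AC9 was compared with VECTOR over all genes with limma 3.58.1 in R 4.3.3 (lmFit, eBayes, two-sided, Benjamini-Hochberg over 19505 genes, threshold 0.05). The fit was first run on simulated data with planted changes larger than those of the members that fell. That run does not cover changes of their size. Members, lists and tests were chosen with earlier results of these data known. The naming rule covered Adcy9, every member, up to 4 passing genes per list and the subunit pairs. Emc9, H2-T-ps, Ifngr2 and Tyk2 lie outside it. So do Calr, Pdia3, Sec61a1, Creb1, Atf1, Irf1, Ciita and Cd1d1, which did not pass. Alternatives changed the prior, normalization, centring, dim-gene filter, probe set choice, array weights, replicate block, arrays used and threshold. The number of arrays limits the precision.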

Additional observations from a re-analysis of the deposited data

Results flagged for a closer look

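Probe sets without a gene name here were left out of the comparison. Of the 106 such probe sets on chromosome 17, which holds the H2 complex, 7 were higher and 5 lower in AC9 (limma over 22206 probe sets, adjusted p under 0.05). Over the 19505 named genes, 8.26% were higher and 9.29% lower at the same threshold, so neither count is read as a result about this chromosome. The unnamed probe sets stand here because no comparison above used them.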

How the results depend on the processing

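The 6 members that fell did so, and 0 members rose, under the trended robust prior and repeated quantile normalization. The same held with centring on the gene median or on the negative controls, both filters on dim genes and array weights. It held too with the mean of probe sets and all probe sets, but no member had several probe sets. Those settings kept the members' values and are no check of their calls. B2m was added under the trended prior and Psmb10 under one dim-gene filter. With an array left out, 4 to 6 members fell, with a median change of -0.13 to -0.03 over the members (-0.03 without AC9 replicate 3 and -0.05 without VECTOR replicate 2, with an SD of that median between arrays of 0.10), and 2174 to 3025 of all genes passed (2174 without AC9 replicate 1, against 3424). At an adjusted p of 0.01, 4 members fell and 1670 genes passed. With the replicate block, 6 members fell and 3062 genes passed. Same-numbered samples deviated together with correlations of 0.01 to 0.08, so the numbers were not taken as pairs. The planned difference Psmb8 minus Psmb5 was not run, because no probe set was matched to Psmb5.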
